A study of Mus musculus with 12 samples.

Results

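Regulators that set epithelial or mesenchymal fate at the level of transcription and splicing were followed in mouse mammary tumour cells with and without the receptor tyrosine kinase AXL, at low and at normal oxygen. The set holds the 10 genes *Snai1*, *Snai2*, *Twist1*, *Twist2*, *Zeb1*, *Zeb2*, *Ovol1*, *Ovol2*, *Grhl2* and *Esrp1*, chosen by symbol, out of 54232 genes in the count files. All 10 were found and all 10 passed the filter on low counts that left 16767 genes. The cells were MMTV-NIC breast cancer cells, from tumours in which the MMTV promoter drives an activated Neu (ErbB2) together with Cre in mammary epithelium. Total RNA was sequenced from 4 groups of 3 libraries, all from that model: AXL KO cells at 1% O2 (hypoxia), AXL WT cells at 1% O2, AXL KO cells at 21% O2 (normoxia) and AXL WT cells at 21% O2. Oxygen was taken from the titles and the treatment tag; a protocol field reads 1% O2 for all 12 samples. The labels give neither the time in hypoxia nor the number of KO clones or separate cultures, so p-values measure the spread between these libraries, which may be technical. KO and WT groups may therefore also differ by clone, which cannot be told apart from the loss of *Axl*.

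The SNAIL, TWIST and ZEB proteins are DNA-binding factors known for driving epithelial-mesenchymal transition (EMT), the loss of cell-cell junctions and gain of motility that embryonic and carcinoma cells can undergo. SNAIL and ZEB proteins bind E-box sequences in the promoters of junction genes such as *Cdh1* (E-cadherin) and repress them, while TWIST proteins are basic helix-loop-helix factors that pair with E proteins. GRHL2 and the OVOL zinc-finger factors hold the epithelial state and repress *Zeb1*, which in turn represses epithelial genes, and ESRP1 drives the epithelial splice forms of genes such as *Cd44* and *Fgfr2*.

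Library totals ran from 45297267 to 58775422 assigned counts. *Axl* itself had 78 to 200 counts per KO library and 19395 to 57291 per WT library, in accord with the titles. The 3 AXL WT hypoxia libraries stood apart from one another: their biological coefficient of variation, the spread between libraries beyond counting error, was 0.402, against 0.0585 to 0.0895 in the other groups. The summed level of 7 luminal markers was, in counts per 1e6 of the library total after TMM scaling (CPM), 2264 in replicate 1, 1007 in replicate 2 and 1003 in replicate 3 of that group, and lay between 1814 and 2116 CPM in all other groups. In the same order of replicates *Erbb2* had 2407, 131 and 359.5 CPM, and its range was 607.1 to 693.7 for KO cells in hypoxia, 499.8 to 650.6 for KO cells in normoxia and 1116 to 1342 CPM for WT cells in normoxia. Of the luminal markers, *Krt8* and *Krt18* weighed most in these sums, at up to 875.4 and 1159 CPM. *Epcam* and *Gata3* went against the sum: their highest levels, 103.7 and 159.7 CPM, were in AXL WT hypoxia replicate 2. *Krt19* stayed under 1 CPM, as did *Krt5*, *Krt17* and *Acta2* of the basal list, *Thy1*, *Lum*, *Fap* and *Dpt* of the fibroblast list, and *Ptprc*, *Cd3e*, *Itgam*, *Adgre1* and *Lyz2* of the leukocyte list. The leukocyte list sum spanned 49.03 to 55.59 CPM for KO cells in hypoxia, 14.99 to 151.8 for WT cells in hypoxia, 59.56 to 85.29 for KO cells in normoxia and 11.12 to 12.65 for WT cells in normoxia, and *Csf1r* and *Cd68* were its only members above 1 CPM. The basal list sum was 5.166 to 6.007 CPM for KO cells in hypoxia, 50.27 to 137.6 for WT cells in hypoxia, 13.52 to 15.66 for KO cells in normoxia and 31.79 to 34.11 for WT cells in normoxia. Its most abundant gene, *Krt14*, reached 136.9 CPM, followed by *Trp63* at up to 14.83 CPM. *Krt14* differed by −5.52 ± 0.38 in hypoxia and −5.70 ± 0.40 in normoxia (log2, KO over WT, SE). Other basal genes went the other way: on the same scale *Trp63* was higher in KO by 9.04 ± 0.61 in normoxia and *Oxtr* by 5.98 ± 0.51 in hypoxia. Of the 4 basal genes tested, 1 was called higher and 1 lower in KO at each oxygen level. The fibroblast list sum was 19.57 to 23.16 CPM, 57.52 to 84.96 CPM, 166.8 to 181.1 CPM and 65.47 to 71.99 CPM in the order of groups of the basal sum. *Pdgfrb*, *Pdgfra* and *Dcn* reached up to 127.6, 67.76 and 13.61 CPM. *Dcn* went against the sum in hypoxia, higher in KO by 2.09 ± 0.29 (log2, SE), while 3 of the 4 fibroblast genes tested were called lower there. Their part in the results was not tested, and in bulk RNA fewer expressing cells and less RNA per cell cannot be told apart.

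The reference table holds sequence upstream of the annotated start (RefSeq, GRCm38.p6) for 5 of the 10 genes: *Snai1*, *Twist1*, *Twist2*, *Zeb2* and *Ovol2*. Windows of *Snai2*, *Zeb1*, *Ovol1*, *Grhl2*, *Esrp1* and *Cdh1* were not analysed here. The 250 bases before the start are printed for the *Twist* pair, of which one member was all but absent from WT cells, for *Snai1*, and for *Epcam* (epithelial cell adhesion molecule), an epithelial gene that was lower in KO cells. Capitals mark the E-box bound by SNAIL and ZEB factors (CACCTG, or CAGGTG on the other strand) and the hypoxia response core (ACGTG or GCGTG, or CACGT or CACGC on the other strand); no 2 marked motifs overlap.
Twist2 (chr1:91801211-91801460, plus strand): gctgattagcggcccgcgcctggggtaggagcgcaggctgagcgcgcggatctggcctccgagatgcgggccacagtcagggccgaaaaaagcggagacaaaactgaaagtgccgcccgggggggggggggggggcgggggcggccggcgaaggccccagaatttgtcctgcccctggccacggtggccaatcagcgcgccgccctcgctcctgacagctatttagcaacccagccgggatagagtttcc
Twist1 (chr12:33957421-33957670, plus strand): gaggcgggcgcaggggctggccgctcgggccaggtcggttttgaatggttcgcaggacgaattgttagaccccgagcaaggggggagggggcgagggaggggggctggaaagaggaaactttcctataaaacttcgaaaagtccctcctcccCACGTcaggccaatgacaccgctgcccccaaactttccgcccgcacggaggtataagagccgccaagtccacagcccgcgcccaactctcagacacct
Snai1 (chr2:167537945-167538194, plus strand): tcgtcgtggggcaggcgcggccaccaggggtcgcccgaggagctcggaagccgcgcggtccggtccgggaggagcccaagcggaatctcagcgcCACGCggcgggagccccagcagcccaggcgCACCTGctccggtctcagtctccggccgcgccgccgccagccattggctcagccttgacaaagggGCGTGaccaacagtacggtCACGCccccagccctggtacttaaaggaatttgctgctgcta
Epcam (chr17:87635729-87635978, plus strand): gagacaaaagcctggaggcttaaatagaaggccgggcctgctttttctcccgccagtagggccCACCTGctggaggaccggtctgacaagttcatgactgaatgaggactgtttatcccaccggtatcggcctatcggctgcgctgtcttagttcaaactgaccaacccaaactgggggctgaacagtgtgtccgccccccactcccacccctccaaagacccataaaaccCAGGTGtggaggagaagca
The SNAIL and ZEB E-box occurred 1 time in the *Snai1* window and 2 times in the *Epcam* window, and in 17.2% of 32851 windows of this length. The hypoxia core occurred 3 times in the *Snai1* window and 1 time in that of *Twist1*, and in 38.6% of all windows. The *Twist2* and *Ovol2* windows held neither. *Zeb2* has 4 annotated starts, and the windows of 2 of them, which overlap each other, held the same 1 hypoxia core and no such E-box. These are matches of letters only.

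In AXL KO cells *Twist1*, *Twist2* and *Zeb1* were higher, and *Grhl2* and *Ovol2* lower, than in AXL WT cells at both oxygen levels. In normoxia 9 of the 10 passed the test (edgeR quasi-likelihood, Benjamini-Hochberg adjusted p under 0.05 over all genes): *Twist2*, *Snai2*, *Twist1*, *Zeb1* and *Snai1* were higher in KO, *Grhl2*, *Ovol2*, *Ovol1* and *Esrp1* were lower, and *Zeb2* was not called. In hypoxia 7 passed: *Twist2*, *Zeb1*, *Zeb2* and *Twist1* were higher in KO, and *Snai2*, *Ovol2* and *Grhl2* were lower. The genome moved widely as well. Of all genes tested 59.7% were called in normoxia (29.7% higher, 30% lower) and 63% in hypoxia (29.9% higher, 33% lower), so the hypoxia count is near the background. The KO and WT libraries were apart for all 10 genes in normoxia, as for 79.7% of all genes, and for 6 of 10 in hypoxia, as for 62.6%.

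In AXL KO cells few of the 10 were called between low and normal oxygen. *Zeb1* and *Ovol1* were called, both higher in hypoxia, which makes 2 of 10 where 58% of all genes were called and 27.3% were called higher. In AXL WT cells 6 of 10 were called, where 59.8% of all genes were (29.2% higher, 30.7% lower): *Snai1*, *Snai2*, *Twist1*, *Zeb1* and *Ovol1* were higher in hypoxia and *Zeb2* was lower. The difference between the oxygen responses of KO and WT cells, tested as an interaction, was called for 3 of 10, *Snai2*, *Twist1* and *Zeb2*, where 28.8% of all genes were called. Hypoxia and normoxia libraries did not overlap for 7 of 10 genes in KO cells (76% of all genes) and for 8 of 10 in WT cells (61.4%). *Twist2*, *Ovol1* and *Ovol2* reached the level asked by the filter only in the groups where they were high (KO, hypoxia and WT in that order), so they had to differ between those groups. Their part in the counts above is a description, and no p is given for those differences. Comparisons that share libraries are not independent of each other.

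**Figure D1:**
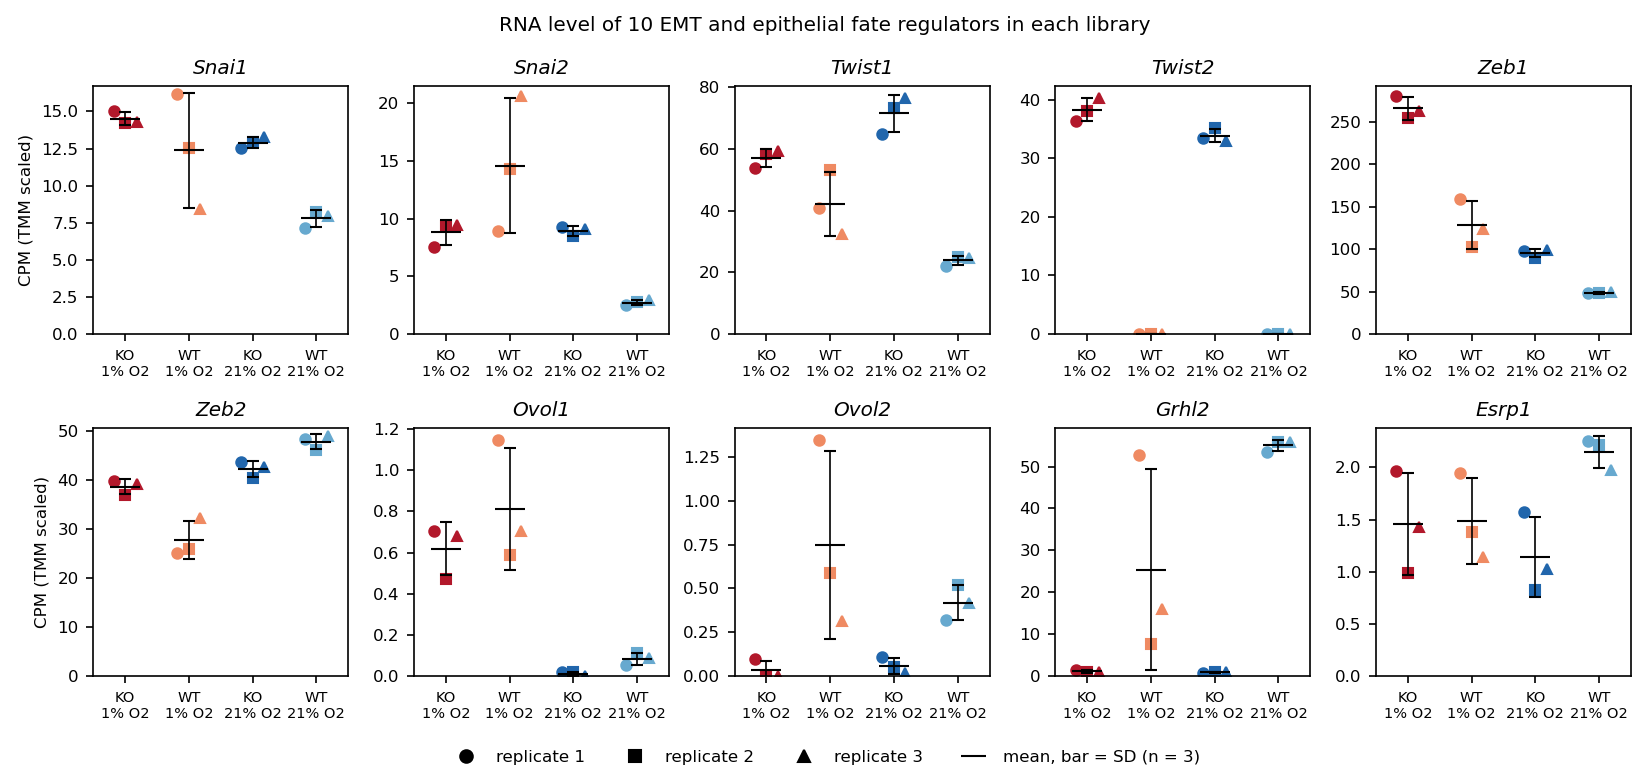
Level of each of the 10 genes in CPM (TMM scaled) in every library, with the mean and SD of 3 libraries per group. *Twist2* is near 0 in both WT groups, *Grhl2* is near 1 CPM in both KO groups, and the 3 AXL WT hypoxia libraries are spread for *Snai2*, *Grhl2* and *Ovol2*.

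*Twist2* showed the widest gap between the genotypes. Its 3 libraries had 1500, 1702 and 1832 counts in AXL KO hypoxia and 0, 2 and 0 counts in AXL WT hypoxia. Normoxic AXL KO libraries had 1871, 2034 and 1902 counts and normoxic AXL WT libraries 0, 0 and 1. TWIST2, also called DERMO1, is a close paralogue of TWIST1 known from dermal mesenchyme. Over the summed counts, scaled for library size, *Twist2* was 2608-fold higher in KO cells in hypoxia (95% counting interval 721.7 to 21540) and 5677-fold higher in normoxia (1018 to 224300). These intervals cover counting error only, and reads are not independent molecules. The genotype difference is a description, since *Twist2* passed the filter through the KO groups. Within AXL KO cells it averaged 38.27 ± 1.97 CPM in hypoxia and 33.83 ± 1.11 CPM in normoxia (SD, n = 3 each), and hypoxia was higher by 0.18 ± 0.19 on the log2 scale (SE, edgeR adjusted p = 0.456).

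*Twist1*, a master regulator of mesoderm and neural crest that drives invasion in mammary carcinoma models, was the most abundant of the 10 per transcript length in every group. It had 53.82, 58.36 and 59.37 CPM in AXL KO hypoxia and 40.77, 53.2 and 32.43 CPM in AXL WT hypoxia, so the groups did not overlap but the highest WT library lay just under the lowest KO library. In normoxia the AXL KO libraries had 64.87, 73.46 and 76.54 CPM and the AXL WT libraries 22.2, 24.9 and 24.69 CPM, a wide separation. The log2 difference of KO over WT was 0.44 ± 0.15 in hypoxia (SE, edgeR adjusted p = 0.0253) and 1.58 ± 0.16 in normoxia (adjusted p = 3.93e-06). The hypoxia call for *Twist1* was lost in 10 alternatives, among them these: without AXL WT hypoxia replicate 3 it was 0.28 (adjusted p = 0.082), without AXL KO hypoxia replicate 2 it was 0.43 (0.0607) and without replicate 3 0.42 (0.0684), without AXL WT normoxia replicate 2 or 3 it was 0.41 and 0.40 (0.0515 and 0.052), and on library size alone it was 0.29 (0.0718). Hypoxia over normoxia was 0.82 ± 0.16 in WT cells (edgeR adjusted p = 7.77e-04) and −0.32 ± 0.15 in KO cells (0.0889), and the difference between the 2 responses was −1.14 ± 0.22 (0.00277). The KO difference of *Twist1* was called without AXL WT hypoxia replicate 2 (−0.32, edgeR adjusted p = 0.0182) or replicate 3 (−0.33, 0.0307), or without both (−0.32, 8.47e-04). It was also called on library size alone (−0.53, edgeR adjusted p = 0.00436), in the 6 KO libraries (−0.33, 0.00184) and by limma-voom with a weight per group (−0.32, 0.00151).

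As a share of the *Twist1* and *Twist2* level per length, *Twist1* made up 74.4% ± 0.406 in AXL KO hypoxia, 99.98% ± 0.0289 in AXL WT hypoxia, 80.4% ± 1.404 in AXL KO normoxia and 99.99% ± 0.0231 in AXL WT normoxia (SD, n = 3 each). The pair summed to 47.18 ± 2.40 FPKM (CPM per kilobase of exon), 25.88 ± 6.43, 54.65 ± 3.75 and 14.7 ± 0.92 FPKM in the same order.

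*Snai2* (SLUG), known in the mammary gland for basal and stem cell fate, went opposite ways against WT at the 2 oxygen levels. It had 7.543, 9.406 and 9.484 CPM in AXL KO hypoxia and 8.9, 14.34 and 20.61 CPM in AXL WT hypoxia, where the groups overlapped. At 21% O2 its level was 9.326, 8.487 and 9.069 CPM in AXL KO and 2.485, 2.735 and 2.951 CPM in AXL WT libraries, with no overlap. KO over WT was −0.73 ± 0.24 on the log2 scale in hypoxia (SE, edgeR adjusted p = 0.0207) and 1.72 ± 0.25 in normoxia (1.03e-04). The lower hypoxia level in KO rested on the spread WT libraries: *Snai2* differed by −0.40 without AXL WT hypoxia replicate 3 (edgeR adjusted p = 0.107), by −0.02 without replicates 2 and 3 (0.933), by −0.62 without AXL KO hypoxia replicate 1 (0.0816) and by −0.78 in a fit of the 6 hypoxia libraries alone (0.0778). Hypoxia over normoxia was 2.42 ± 0.26 in WT cells (edgeR adjusted p = 1.10e-05) and −0.02 ± 0.24 in KO cells (0.951, 95% interval −0.59 to 0.54). Without AXL WT hypoxia replicates 2 and 3 the WT response of *Snai2* was 1.72 (edgeR adjusted p = 4.11e-08). The 2 responses differed by −2.45 ± 0.35 (edgeR adjusted p = 4.58e-04), and by −1.74 without those 2 libraries (1.77e-06).

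*Snai1* (SNAIL), the repressor that starts EMT in gastrulation, had 15.04, 14.24 and 14.28 CPM in AXL KO hypoxia and 16.19, 12.52 and 8.434 CPM in AXL WT hypoxia, with the KO libraries inside the WT range. In normoxia it had 12.52, 12.95 and 13.25 CPM in AXL KO libraries and 7.172, 8.225 and 7.961 CPM in AXL WT libraries, with all KO libraries above all WT libraries. KO over WT was 0.23 ± 0.19 in hypoxia (edgeR adjusted p = 0.311, 95% interval −0.21 to 0.67) and 0.73 ± 0.19 in normoxia (adjusted p = 0.0061). Without AXL WT hypoxia replicate 1 the hypoxia difference of *Snai1* was 0.48 (edgeR adjusted p = 0.0119), and without AXL WT hypoxia replicates 2 and 3 it was −0.16 (0.251). The hypoxia response was 0.67 ± 0.19 in WT cells (edgeR adjusted p = 0.0104), 0.36 on library size alone (0.0971), 0.74 in a fit of the 6 WT libraries (0.0513), and 0.17 ± 0.19 in KO cells (0.469). The 2 responses of *Snai1* differed by −0.50 ± 0.27 (edgeR adjusted p = 0.191), by −0.72 without AXL WT hypoxia replicate 3 (0.0145) and by −0.90 without replicates 2 and 3 (9.35e-05). *Snai1* made up 67.3% ± 3.47 of the *Snai1* and *Snai2* level per length in AXL KO hypoxia, 51.8% ± 17.8 in AXL WT hypoxia, 64.2% ± 1.496 in AXL KO normoxia and 78.1% ± 0.936 in AXL WT normoxia (SD, n = 3 each). In the AXL WT hypoxia libraries that share was 69.4%, 52.1% and 33.8%, while the sum of the 2 genes stayed between 14.39 and 15.4 FPKM.

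*Zeb1* was higher in KO than in WT at each oxygen level and higher in hypoxia in each genotype. It had 280.7, 254.7 and 262.9 CPM in AXL KO hypoxia and 159.1, 102.1 and 124.1 CPM in AXL WT hypoxia, with no overlap. In normoxia it had 98.35, 90.14 and 98.82 CPM in AXL KO libraries and 48.46, 47.8 and 49.62 CPM in AXL WT libraries, again apart. KO over WT was 1.05 ± 0.13 on the log2 scale in hypoxia (SE, edgeR adjusted p = 3.61e-05) and 0.98 ± 0.13 in normoxia (5.69e-05). Hypoxia over normoxia was 1.47 ± 0.14 in KO cells (edgeR adjusted p = 4.45e-06) and 1.401 ± 0.14 in WT cells (5.14e-06). The 2 oxygen responses of *Zeb1* differed by 0.07 ± 0.19 (edgeR adjusted p = 0.813, 95% interval −0.36 to 0.51).

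*Zeb2* (SIP1), the paralogue with a similar pair of zinc-finger clusters, did not follow *Zeb1*. It had 39.85, 36.95 and 39.17 CPM in AXL KO hypoxia and 25.18, 26.04 and 32.3 CPM in AXL WT hypoxia, so all KO libraries were above all WT libraries. In normoxia the AXL KO libraries had 43.63, 40.55 and 42.71 CPM and the AXL WT libraries 48.34, 46.17 and 49.11 CPM, with KO below WT. KO over WT was 0.47 ± 0.11 in hypoxia (edgeR adjusted p = 0.00239) and −0.18 ± 0.11 in normoxia (0.171). The hypoxia difference of *Zeb2* was 0.30 on library size alone (edgeR adjusted p = 0.062) and 0.42 in a fit of the 6 hypoxia libraries (0.0519). In normoxia it was −0.19 in a fit of the 6 normoxia libraries (adjusted p = 0.0131) and −0.43 on library size alone (0.0116). Its oxygen difference, hypoxia over normoxia, was −0.78 ± 0.11 in WT cells (edgeR adjusted p = 7.70e-05) and −0.13 ± 0.11 in KO cells (0.322), and the 2 responses differed by 0.65 ± 0.15 (0.00821). *Zeb1* made up 93.04% ± 0.155 of the *Zeb1* and *Zeb2* level per length in AXL KO hypoxia, 89.7% ± 2.42 in AXL WT hypoxia, 81.5% ± 0.305 in AXL KO normoxia and 66.4% ± 0.375 in AXL WT normoxia (SD, n = 3 each). The miR-200 family and miR-205 repress both *Zeb* mRNAs, and the 6 of their 7 loci found in the files had 0 counts in all 12 libraries, which says nothing of the mature miRNAs.

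**Figure D2:**
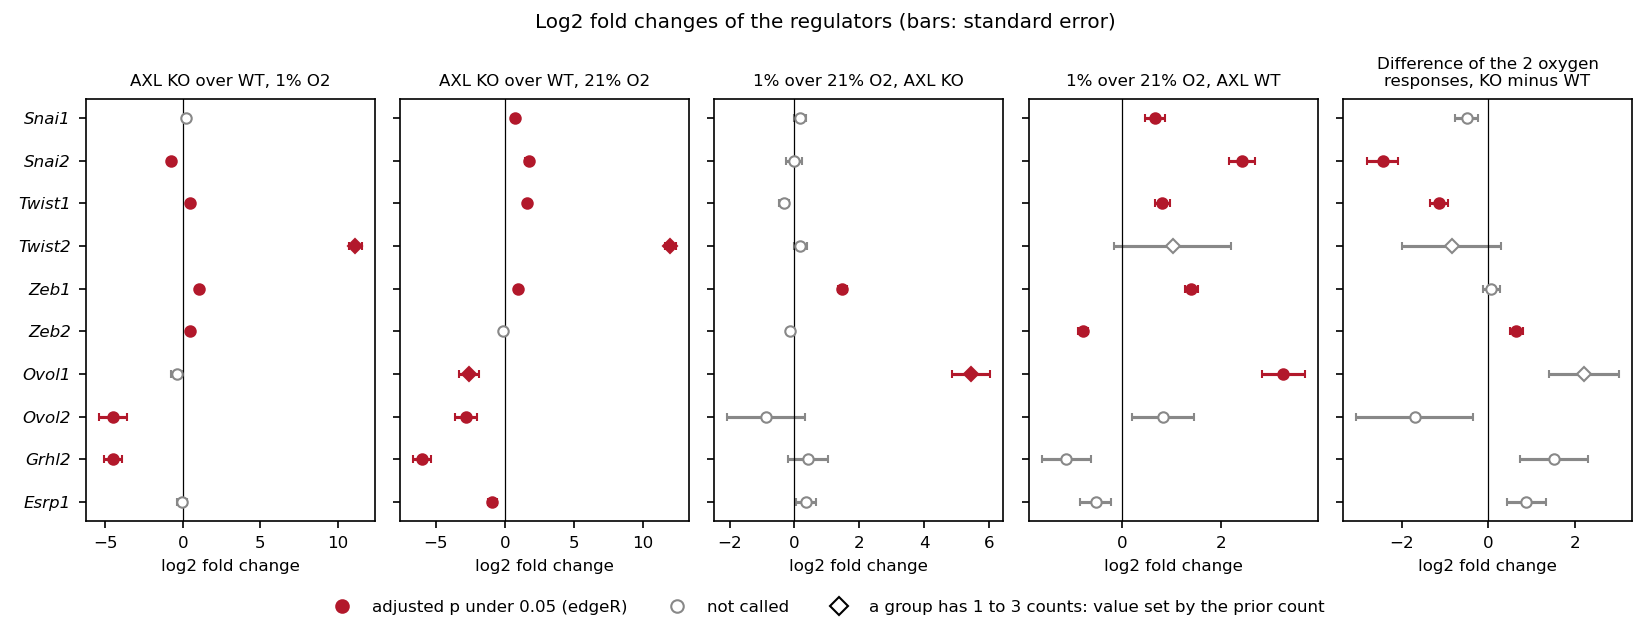
Log2 fold change and standard error of each gene in the 5 comparisons (edgeR), with filled red points for adjusted p under 0.05 and diamonds where a group has 1 to 3 counts, so that the plotted value depends on the prior count and is not a bound. *Snai2* lies left of 0 for KO over WT at 1% O2 and right of 0 at 21% O2, and *Zeb1* lies right of 0 in the first 4 panels. Points of *Twist2* and *Ovol2* for KO over WT, and of *Ovol1* for oxygen, describe differences that the filter required.

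*Grhl2*, the grainyhead factor that keeps junction genes open, was nearly absent from KO cells. It had 64, 40 and 43 counts in AXL KO hypoxia libraries and 2387, 328 and 765 counts in AXL WT hypoxia libraries. At 21% O2 the counts were 45, 51 and 49 in AXL KO libraries and 3038, 3006 and 3195 in AXL WT libraries, and at neither oxygen level did the genotypes overlap. KO over WT was −4.49 ± 0.60 on the log2 scale in hypoxia (SE, edgeR adjusted p = 5.17e-05) and −6.02 ± 0.63 in normoxia (6.34e-06), a level 65.0-fold lower in KO. Within WT cells *Grhl2* had 52.71, 7.687 and 15.89 CPM in hypoxia and 53.54, 55.94 and 55.78 CPM in normoxia. Hypoxia replicate 1 thus lay at the normoxia level and the other 2 lay well below it. The WT oxygen difference was −1.11 ± 0.50 (edgeR adjusted p = 0.0716), −2.22 without AXL WT hypoxia replicate 1 (6.00e-06), −1.41 on library size alone (0.0275) and −0.05 without replicates 2 and 3 (0.747). In KO cells it was 0.41 ± 0.62 (edgeR adjusted p = 0.588, 95% interval −1.005 to 1.83). The KO against WT difference of *Grhl2* in hypoxia was −5.56 without AXL WT hypoxia replicates 2 and 3 (edgeR adjusted p = 3.38e-15) and between −4.93 and −3.38 when any 1 library was left out, the smallest without AXL WT hypoxia replicate 1. The 2 oxygen responses of *Grhl2* differed by 1.53 ± 0.79 (edgeR adjusted p = 0.170), and by 2.64 without that replicate (1.38e-04).

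*Ovol2*, a zinc-finger repressor of *Zeb1*, was at low counts, fewer in KO than in WT. It had 4, 0 and 0 counts in AXL KO hypoxia and 61, 25 and 15 counts in AXL WT hypoxia. At 21% O2 *Ovol2* had 6, 3 and 1 counts in AXL KO libraries and 18, 28 and 24 in AXL WT libraries. *Ovol2* passed the filter through the WT groups, so its genotype difference is a description. The log2 difference of KO over WT was −4.50 in hypoxia and −2.79 in normoxia. In hypoxia it was −3.75 without AXL WT hypoxia replicate 1, and −5.36 without replicates 2 and 3. With AXL KO hypoxia replicate 1 left out, the KO hypoxia libraries had no count. In normoxia *Ovol2* differed by −3.50 without AXL KO normoxia replicate 1. Hypoxia over normoxia was not called in WT cells (0.83 ± 0.62, edgeR adjusted p = 0.269), but was 1.70 without AXL WT hypoxia replicates 2 and 3 (0.00383). In KO cells the *Ovol2* difference was −0.88 ± 1.19 (edgeR adjusted p = 0.553, 95% interval −3.62 to 1.87). When 1 library was left out it lay between −4.65, with no count left in KO hypoxia, and −0.16.

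*Ovol1* had more counts in hypoxia in both genotypes, again at low levels. It had 29, 21 and 31 counts in AXL KO hypoxia and 1, 1 and 0 counts in AXL KO normoxia, a 52.93-fold ratio of scaled sums (95% counting interval 14.19 to 444.5). In AXL WT libraries it had 52, 25 and 34 counts in hypoxia and 3, 6 and 5 in normoxia, a log2 difference of 3.25. *Ovol1* passed the filter through the hypoxia groups, so these oxygen differences are descriptions, and the interval covers counting error only. In both genotypes all hypoxia libraries were above all normoxia libraries. KO against WT was −0.40 ± 0.36 in hypoxia (edgeR adjusted p = 0.350, 95% interval −1.22 to 0.43), and −0.90 without AXL WT hypoxia replicates 2 and 3 (0.0407). In normoxia the KO sum was 2 counts and the WT sum 14, which made *Ovol1* 7.161-fold lower in KO (95% counting interval 1.645 to 64.92, edgeR adjusted p = 0.00842). The difference between the 2 oxygen responses of *Ovol1* was not called (edgeR adjusted p = 0.0609), and was called without AXL WT hypoxia replicate 1 (0.0187).

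*Esrp1* stayed low throughout. It had 81, 44 and 65 counts in AXL KO hypoxia and 88, 59 and 55 in AXL WT hypoxia, where the groups overlapped (−0.03 ± 0.32, edgeR adjusted p = 0.941, 95% interval −0.76 to 0.70). In normoxia it had 88, 48 and 59 counts in AXL KO libraries and 128, 119 and 113 in AXL WT libraries, with no overlap (−0.91 ± 0.31, edgeR adjusted p = 0.0248). Hypoxia over normoxia was −0.53 ± 0.31 in WT cells (edgeR adjusted p = 0.164), −0.77 without AXL WT hypoxia replicate 1 (0.042), and 0.35 ± 0.32 in KO cells (0.361). The 2 responses of *Esrp1* differed by 0.88 ± 0.44 (edgeR adjusted p = 0.160), and by 1.13 without AXL WT hypoxia replicate 1 (0.0392). The normoxia call of KO against WT was lost in 5 of the 12 fits that left out 1 library, with log2 differences of −0.93 to −0.72 and adjusted p between 0.0506 and 0.107 in them: AXL WT normoxia replicate 1, 2 or 3, or AXL KO normoxia replicate 2 or 3. Its paralogue *Esrp2*, which shares its targets, averaged 1.712 ± 0.196 CPM in AXL KO hypoxia, 8.394 ± 3.31 in AXL WT hypoxia, 2.061 ± 0.296 in AXL KO normoxia and 8.111 ± 0.162 CPM in AXL WT normoxia. KO over WT for *Esrp2* was −2.29 ± 0.26 in hypoxia (edgeR adjusted p = 1.43e-05) and −1.98 ± 0.25 in normoxia (3.34e-05).

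**Figure D3:**
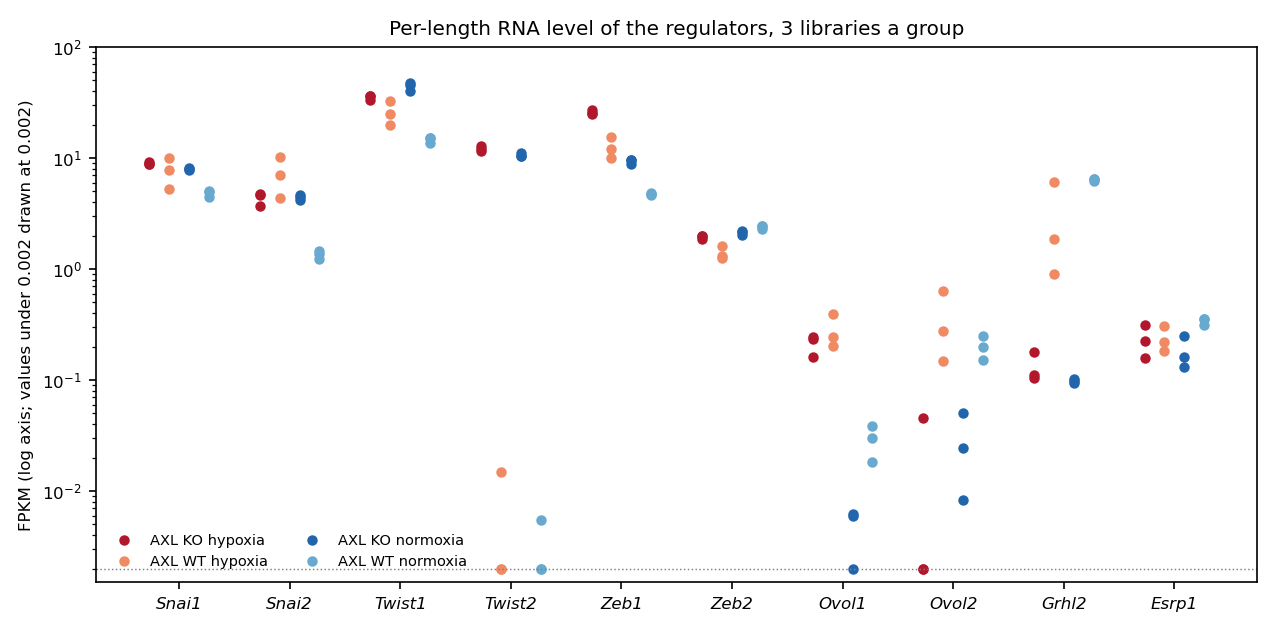
Level per transcript length (FPKM, log axis) of the 10 genes in each library, with values under 0.002 drawn at 0.002. *Twist1* leads in every group, and *Grhl2* stands second in AXL WT normoxia.

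Per length, *Twist1* averaged 35.12 FPKM in AXL KO hypoxia, 25.88 in AXL WT hypoxia, 43.99 in AXL KO normoxia and 14.7 in AXL WT normoxia. In AXL KO hypoxia *Zeb1*, *Twist2*, *Snai1*, *Snai2* and *Zeb2* followed, down to 1.938 FPKM, with each gene's libraries apart from the next. In AXL WT hypoxia *Zeb1*, *Snai1*, *Snai2*, *Grhl2* and *Zeb2* followed *Twist1*, and from *Zeb1* to *Zeb2* each gene's libraries overlapped those of the next. In AXL KO normoxia *Twist2* was second at 10.66 FPKM, with *Zeb1* at 9.329, and all 9 neighbouring pairs were apart. In AXL WT normoxia *Grhl2* was second at 6.395 FPKM, and *Snai1* and *Zeb1*, next in order, overlapped. The 4 epithelial factors averaged at most 0.232 FPKM in the KO groups. In the WT groups *Ovol1*, *Ovol2* and *Esrp1* were also low, at most 0.354 FPKM, while *Grhl2* averaged 2.953 FPKM in hypoxia and 6.395 FPKM in normoxia.

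**Figure D4:**
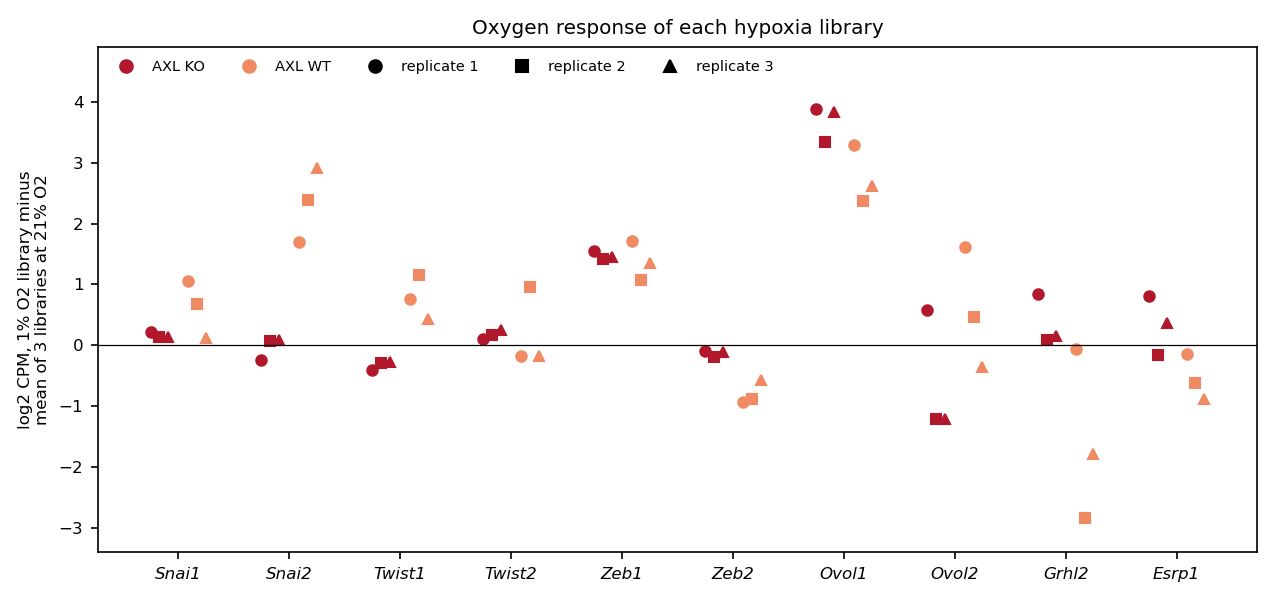
Log2 CPM (prior count 2) of each 1% O2 library minus the mean of the 3 libraries of its genotype at 21% O2. All 6 libraries lie above 0 for *Zeb1* and *Ovol1*, WT libraries lie above the KO libraries for *Snai2* and *Twist1* and below them for *Zeb2*, and *Twist2* in WT rests on 0 to 2 counts per library.

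The partner and target genes were read as lists, chosen with earlier results of these data known, and are described by counts beside the background. List genes near 0 counts in 1 genotype passed the filter through the other, so their part in these counts is a description. Over all genes 29.9% were called higher and 33% lower in KO in hypoxia, and 29.7% higher and 30% lower in normoxia. Of 13 other EMT transcription factors tested (of 16), 7 were higher and 4 lower in KO cells in hypoxia, and 8 were higher and 2 lower in normoxia. The median log2 difference was 1.4003 and 1.134, against −0.04 and −0.03 over all genes. *Foxc1*, a mesenchymal forkhead factor, differed by 1.43 ± 0.12 in hypoxia and 2.07 ± 0.13 in normoxia. *Id2*, which binds and blocks E proteins, differed by 2.52 ± 0.22 and 3.03 ± 0.22, and *Tcf3* (E2A), an E protein that pairs with TWIST, by 2.16 ± 0.20 in hypoxia. *Prrx1*, a mesenchymal homeobox factor, fell in hypoxia in KO cells by 4.88 ± 0.37 on the log2 scale (edgeR adjusted p = 1.21e-06). In WT cells it was lower in hypoxia too, at 5.76 ± 3.10 CPM against 14.81 ± 0.99 CPM in normoxia (SD, n = 3 each). The 2 responses of *Prrx1* differed by −3.52 ± 0.46 (SE, edgeR adjusted p = 2.42e-04).

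Of 11 mesenchymal effector genes tested (of 14), 6 were higher and 3 lower in KO in hypoxia (29.9% and 33% of all genes). In normoxia 7 were higher and 3 lower (29.7% and 30%). *Fn1* (fibronectin) averaged 18370 ± 1031 CPM in KO cells against 1338 ± 904.6 CPM in WT cells in hypoxia, and 16660 ± 2106 CPM in KO cells against 605.6 ± 58.1 CPM in WT cells in normoxia (SD, n = 3 each). *Vim* (vimentin) differed by 1.88 ± 0.24 in hypoxia and 0.80 ± 0.23 in normoxia. *Cdh2* (N-cadherin) differed by −0.32 ± 0.28 in hypoxia (edgeR adjusted p = 0.337) and by 1.29 ± 0.28 in normoxia (0.00196). *Sparc*, a matrix glycoprotein, was higher in KO by 2.53 ± 0.19 and 2.07 ± 0.18, while *Tnc* (tenascin C) was lower in hypoxia by −5.10 ± 0.44 and *S100a4* lower in normoxia by −2.82 ± 0.29. In the oxygen comparison 9 of 11 were higher in hypoxia in WT and 5 of 11 in KO, and none was lower. Over all genes 29.2% were called higher and 30.7% lower in WT, and 27.3% higher and 30.6% lower in KO.

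Of 18 epithelial effector genes tested (of 19), 7 were higher and 8 lower in KO in hypoxia and 5 were higher and 8 lower in normoxia, where 29.9% and 33% of all genes were in hypoxia and 29.7% and 30% in normoxia. *Cdh1* averaged 4.473 ± 1.34 CPM in AXL KO hypoxia, 30.27 ± 14.9 in AXL WT hypoxia, 5.533 ± 0.584 in AXL KO normoxia and 10.8 ± 1.64 CPM in AXL WT normoxia. *Epcam* averaged 9.311 ± 2.82, 64.05 ± 34.3, 7.098 ± 0.861 and 22.1 ± 2.43 CPM in the same order. Both were higher in hypoxia in WT cells, *Cdh1* by 1.49 ± 0.30 (edgeR adjusted p = 0.00127) and *Epcam* by 1.54 ± 0.31 (0.00129). In the same comparison *Snai1*, *Snai2*, *Twist1* and *Zeb1* were higher. For *Cdh1* and *Epcam* these differences rest on the uneven AXL WT hypoxia libraries, and no fit that left out any of those is given for them. *Cldn4*, a tight junction protein, was lower in KO by −2.52 ± 0.23 in hypoxia and −2.86 ± 0.23 in normoxia, while *Spint2*, a protease inhibitor of epithelia, was higher by 2.02 ± 0.12 and 2.501 ± 0.13.

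Of 9 epithelial fate transcription factors tested (of 12), 1 was higher and 4 lower in KO in hypoxia (29.9% and 33% of all genes). In normoxia 4 were higher and 2 lower (29.7% and 30%). The 1 higher in hypoxia was *Foxa1*. *Elf3*, an epithelial ETS factor, was lower in KO by −3.28 ± 0.29 and −3.06 ± 0.29. *Foxa1*, a luminal pioneer factor, had 142 counts over the AXL KO hypoxia libraries and 0 over the AXL WT hypoxia libraries, at least 49.1-fold higher against a floor of 3 counts over the group. Over the normoxia libraries it had 261 counts in AXL KO and 0 in AXL WT libraries, at least 85.1-fold higher. *Foxa1* passed the filter through the KO groups, so its genotype difference and its place in the counts are descriptions. Of 11 genes of epithelial splicing and its opponents, 3 were higher and 4 lower in KO in hypoxia, near the background of 29.9% and 33%. In normoxia 2 were higher and 5 lower, where 29.7% and 30% of all genes were. Among them *Rbm47*, an RNA-binding protein of epithelia, was higher in KO by 1.84 ± 0.11 and 2.46 ± 0.12.

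Of 17 corepressor partners of SNAIL and ZEB, 7 were higher and 5 lower in KO in hypoxia (29.9% and 33% of all genes) and 3 were higher and 7 lower in normoxia (29.7% and 30%). *Wtip*, an AJUBA-family LIM protein that can act as a SNAIL corepressor, had 13615 counts over the AXL KO hypoxia libraries and 0 over the AXL WT hypoxia libraries, and 9329 counts in AXL KO normoxia and 1 in AXL WT normoxia. It was at least 4703-fold higher in hypoxia, against the same floor. *Wtip* also passed the filter through the KO groups, so its place among the genes called higher is a description. Of 15 genes of SNAIL protein turnover, 6 were higher and 3 lower in KO at each oxygen level. *Prkd1*, a kinase that phosphorylates SNAIL, was higher in KO by 1.28 ± 0.09 and 1.64 ± 0.10, and *Gsk3b*, the kinase that marks SNAIL for degradation, by 0.54 ± 0.10 and 1.20 ± 0.10. Both are RNA levels, and SNAIL protein was not measured.

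**Figure D5:**
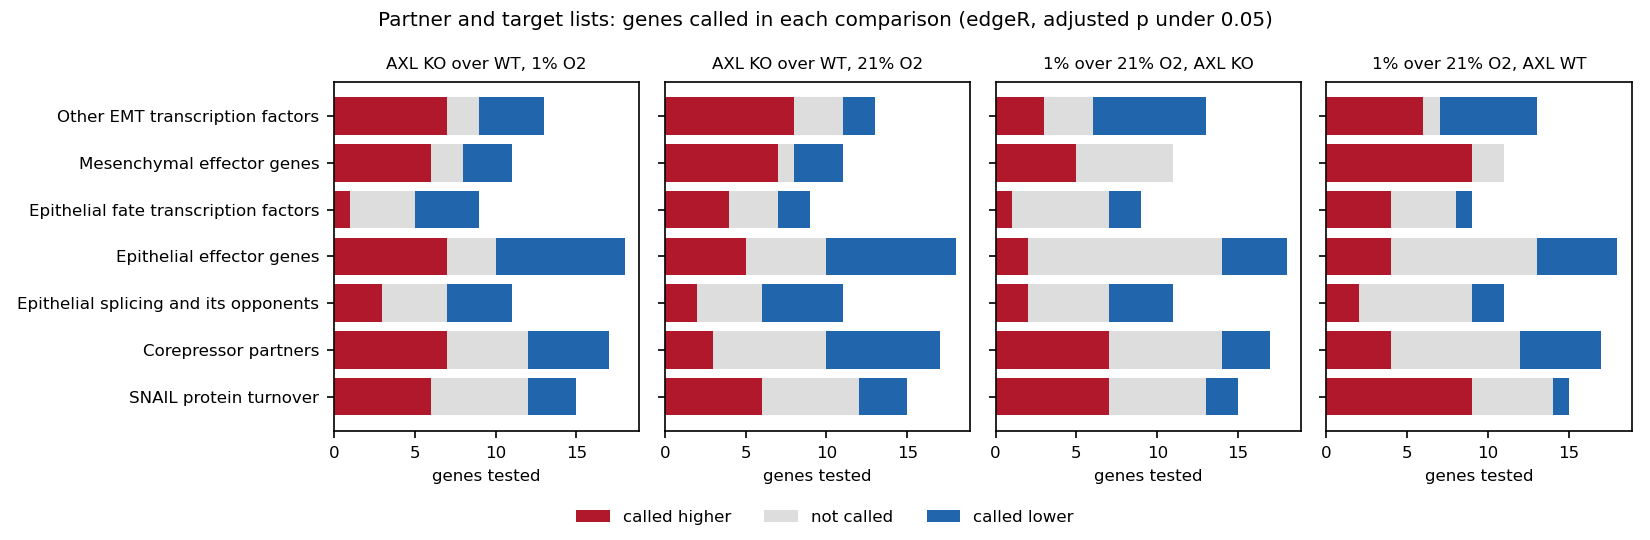
Number of genes called higher, not called and called lower in 7 lists of partners and targets in the 4 comparisons between groups (edgeR, adjusted p under 0.05). The epithelial effector list splits 7 higher and 8 lower for KO over WT at 1% O2, and the mesenchymal list has none lower in either oxygen comparison.

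Genes beside the members were read from the annotation (GRCm38), with counts by strand as the file headers give them. The nearest genes were taken by distance, and those named here were picked from them after their values were seen. Their differences are therefore descriptions, and no p is given for them. *Grhl2* (chr15:37233036-37363569, plus strand) has *Ncald*, a neuronal calcium sensor gene, 2606 bases away on the other strand. *Ncald* had 2 counts over the AXL KO hypoxia libraries and 130 over the AXL WT hypoxia libraries, and 1 over the AXL KO normoxia and 796 over the AXL WT normoxia libraries. The antisense RNA *Gm16136*, which overlaps *Grhl2*, had 11 and 273 counts in AXL KO and WT hypoxia and 35 and 1381 in AXL KO and WT normoxia. It was lower in KO by −4.51 and −5.32 on the log2 scale. *Grhl2* and both of these picked neighbours were lower in KO at each oxygen level. *Gm29100*, antisense to *Twist2* (chr1:91801461-91848028, plus strand), had 659 counts in AXL KO hypoxia, 256 in AXL WT hypoxia, 445 in AXL KO normoxia and 25 in AXL WT normoxia. *Hdac4*, 80751 bases from *Twist2*, differed by 0.54 in hypoxia and by 0.81 in normoxia (log2, KO over WT). *Zeb2os*, antisense to *Zeb2*, had 87, 15, 593 and 21 counts in the same order of groups. *Gm10125*, which overlaps *Zeb1* on the other strand, went against its neighbour, with 32, 245, 11 and 42 counts in that order. *Gm10125* was lower in KO by −2.88 in hypoxia and −1.92 in normoxia, where *Zeb1* was higher.

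The genes with the pattern most like each member over the 12 libraries were found by the root mean square (RMS) difference of centred log2 CPM among 11621 or 11622 protein-coding genes. *Zeb1* was closest to *Cic* (RMS 0.101, against a median of 1.09 over all genes) and *Trpc1* (0.143). *Twist2* was closest to *Rprm* (0.349, median 4.79) and *Klhl13* (0.431). *Grhl2* was closest to *Pde3b* (0.498, median 2.70), *Twist1* to *Arf4* (0.15) and *Selenok* (0.165), *Snai2* to *Arhgap42* and *Ctsh* (both 0.287), and *Snai1* to *Ppp1r13b* (0.0997) and *Tmod3* (0.123). *Zeb2* was closest to *Atpaf1* (0.0971) and *Mfn1* (0.103), *Ovol1* to *Cdc42ep2* (0.45) and *Ier3* (0.463), *Ovol2* to *Ifnlr1* (0.572) and *Mab21l3* (0.609), and *Esrp1* to *Slf2* (0.239) and *Epg5* (0.241).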

How the data were processed

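Total RNA of MMTV-NIC cells was measured in 12 libraries. Per the submitters' processing notes reads were aligned to GRCm38 with STAR 2.5.1b and the notes list featureCounts 1.4.6, while the file headers name featureCounts 1.6.0, Ensembl release 93 and strand setting 2; the authors deposited whole-number counts per gene, not normalized. Groups follow the sample titles, since the genotype tag contradicts them in 6 samples; oxygen follows the titles and the treatment tag, while the treatment protocol field reads 1% O2 in all 12. Counts were fitted here with edgeR 4.0.16 in R 4.3.3 (quasi-likelihood, robust; TMM scaling; filterByExpr; 1 mean per group over 12 libraries; 8 residual degrees of freedom), with Benjamini-Hochberg adjustment over 16767 genes and a threshold of 0.05; 37465 of 54232 genes were filtered out. DESeq2 1.42.0 and limma 3.58.1 served as alternatives. SE is the log2 fold change divided by the square root of F. CPM ± is the SD over 3 libraries, and FPKM divides CPM by exon length. Totals of 45297267 to 58775422 counts limit low genes most. Intervals for counts are at 95% and floors at 3 counts over the group. The fit was tested on simulated data; recovery of the smaller of the known fold changes fell short of the bar first set, and that bar was then lowered with no change to the fit. Members and lists were chosen with earlier results of these data known. Named genes are the 10 members, at most 4 genes per list with the smallest p in the comparison described, *Cdh1*, *Epcam*, *Vim*, *Cdh2*, *Fn1* and *Axl*, and the 2 genes closest to each member in pattern (mean CPM of at least 1); the genes beside the members fall outside that rule. A few genes that this rule or a marker list would name are not reported here.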

Additional observations from a re-analysis of the deposited data

Results flagged for a closer look

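For 3 of the 10 genes the response to hypoxia differed between AXL KO and AXL WT cells by a test of the difference itself (edgeR interaction term, adjusted over all genes, 28.8% of which were called). *Snai2* differed by −2.45 on the log2 scale (KO response minus WT response), since its KO libraries lay around the normoxia level and all 3 WT hypoxia libraries lay above it. *Twist1* differed by −1.14, with all 3 KO hypoxia libraries below the KO normoxia mean and all 3 WT hypoxia libraries above the WT normoxia mean. *Zeb2* differed by 0.65, with a response of −0.13 in KO and −0.78 in WT cells. In the replicate 2 and 3 libraries of AXL WT hypoxia the luminal marker sum was 1007 and 1003 CPM, against 2264 CPM in replicate 1. That sum is mostly *Krt8* and *Krt18*, while *Epcam* and *Gata3* were at their highest in replicate 2. The part of this spread in these differences was not tested.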

How the results depend on the processing

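In all, 23 alternatives were run, 12 of which left out 1 library. Calls over all genes in the same setting are given in parentheses, and the number of genes tested varies with the setting. Of the 10 genes, KO against WT in hypoxia called 7 (10557). It called 4 in a fit of the 6 libraries compared (7696), 4 with a minimum fold of 1.5 (6578), and 5 to 8 when 1 library was left out (9688 to 12564). KO against WT in normoxia called 9 (10009), and 8 to 9 when 1 was left out (8873 to 11964). Hypoxia against normoxia in KO called 2 (9719), but 4 on library size alone (9767) and 1 with the strict filter of 5 CPM (7200). It called 4 with limma-voom and a weight per group (12340), 4 in the 6 libraries (11786), and 2 to 3 when 1 was left out (8288 to 11499). Hypoxia against normoxia in WT called 6 (10035), and 6 to 8 when 1 was left out (9013 to 11720). The interaction called 3 (4830), and 3 to 6 when 1 was left out (3582 to 8417), with 6 without AXL WT hypoxia replicate 1 (8417). The cause was not tested. Reversals were in differences not called. KO against WT in hypoxia gave *Esrp1* 0.0064 with no filter, 0.22 without AXL WT hypoxia replicate 1 and 0.19 without AXL KO hypoxia replicate 2, and *Snai1* −0.16 without AXL WT hypoxia libraries 2 and 3. Hypoxia in KO gave *Snai1* −0.0364 and *Twist2* −0.0286 on library size alone, and *Snai2* 0.0865 without AXL KO hypoxia replicate 1 (−0.0757 to 0.0865 when 1 library was left out). Hypoxia in WT gave *Twist2* −1.78 without AXL WT hypoxia replicate 2 and −1.79 without libraries 2 and 3 (−1.78 to 2.80 when 1 library was left out). The interaction gave *Twist2* 1.97 in the same 2 settings (−2.66 to 1.97), and *Zeb1* −0.004 and −0.02 without AXL WT normoxia replicate 1 or 3, −0.0737 without AXL WT hypoxia replicate 2 (−0.0737 to 0.2629 when 1 library was left out) and −0.24 without libraries 2 and 3. Same-numbered libraries showed little shared deviation (r from −0.06 to 0.14, over 0.1 in 2 of 18 pairs). With 3 libraries a group, and the AXL WT hypoxia libraries uneven, this cannot exclude that the numbers pair them. With a replicate block the counts called were 7, 9, 2, 7 and 3 (10425, 9915, 9582, 9875 and 4521 over all genes). The call that changed was *Grhl2*, lower in WT hypoxia by −1.43 (edgeR adjusted p = 0.0216). Over all genes a minimum fold of 1.5 called 6578, 6172, 5431, 6004 and 2045 genes, against 10557, 10009, 9719, 10035 and 4830; the interaction without AXL WT hypoxia replicate 1 called 8417. Library size alone moved the median of all genes to −0.21, −0.29, −0.23 and −0.32 in the 4 comparisons between groups and the share of calls that were higher to 35.8% in KO against WT in normoxia (49.7% with TMM), 36% for hypoxia in KO (47.1%) and 33.2% for hypoxia in WT (48.8%).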
